A study of Mus musculus with 12 samples.

Results

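Mouse skin taken from an incision treated with a miR-29b mimic was compared with unwounded skin injected with vehicle. The 2 groups hold 6 of the 12 arrays of the study, 3 each. They were taken by their labels, and all genes measured were compared. In the promiR-29 incision group, a 1 cm sutured wound in male C57BL/6 mice of about 8 weeks received 100 nmol of the mimic (promiR-29) by intradermal injection 72 hours after wounding. In the intact PBS group, uninjured skin of mice of the same strain, sex and age was injected with phosphate-buffered saline. Skin of both groups was collected 24 hours after the injection. A further group of 3 arrays, incisions injected with PBS, is given beside the results because the comparison changes the wound and the mimic together, so their parts in a difference cannot be told apart within it. All 4 groups of the study enter the fit, the last being intact skin injected with antimiR-29. The labels call the 3 samples of a group biological replicates.

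MicroRNAs are short RNAs that guide Argonaute proteins to matching sites in messenger RNAs and lower their translation and stability. The miR-29 family is known for targeting many extracellular matrix genes, among them collagens and elastin, and DNA methyltransferases. A sutured skin wound a few days old passes through neutrophil and macrophage entry, re-epithelialisation from its edges and the start of matrix deposition. The mature sequences show what the 3 family members share with the mimic's namesake. Capitals mark the seed (bases 2 to 8), which was AGCACCA in all 3. They were taken from RefSeq annotation of build GRCm38.p6, where miR-29a and a first copy of miR-29b lie on chromosome 6 and a second copy of miR-29b and miR-29c lie on chromosome 1. The mimic's own strands and chemical modifications were not used here.
mmu-miR-29a-3p: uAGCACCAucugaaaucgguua
mmu-miR-29b-3p: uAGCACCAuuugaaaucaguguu
mmu-miR-29c-3p: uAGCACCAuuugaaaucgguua

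Each array compared skin RNA, labelled with Cy5, with a universal mouse reference RNA, labelled with Cy3. Values below are normalised log2 ratios of skin over reference for the gene's probe, so a value can be compared between arrays but not between genes. Between 65.6 and 73.8% of probes were well above background in the skin channel, the median skin signal was 3.67 to 5.00 times background, and no probe was saturated. Intact PBS array 3 stood apart, with a median correlation of 0.921 to its own group, against 0.939 or more for the other 11 arrays. It was the only array of the compared groups on its slide, which it shared with the antimiR-29 arrays. For this array, sample and slide cannot be told apart. Skin RNA was present on every array by its keratinocyte markers: Krt5, a keratin of basal epidermal cells, had 4.52, 4.42 and 4.34 in promiR-29 incisions, against 4.54, 4.21 and 4.00 in intact PBS skin. None of 14 keratinocyte markers was called between the groups. Their median log2 fold change was 0.03, beside a median of 0.00 over all genes. In whole tissue, fewer cells of a type and less RNA per cell cannot be told apart. A gene is called where limma's moderated test gave a Benjamini-Hochberg adjusted p under 0.05 over all genes tested.

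Of 20367 genes tested, 4922 (24.2%) were called between promiR-29 incisions and intact PBS skin, 2781 of them higher (13.7%) and 2141 lower (10.5%) in the incisions. The arrays of the 2 groups did not overlap for 7985 genes (39.2%). Counts of list members below stand beside these shares of 13.7% higher and 10.5% lower. Genes of macrophages and of neutrophil recruitment were among the largest rises. Genes of fibroblasts, skeletal muscle and xenobiotic metabolism were among the largest falls. The counts rested partly on promiR-29 arrays 1 and 2. Without promiR-29 array 1 there were 1851 higher and 1407 lower genes, and without promiR-29 array 2 there were 1743 higher and 1204 lower genes.

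The leading rises and falls below were picked among called genes whose arrays did not overlap. Their separation follows from that choice. Chil3, a chitinase-like protein (Ym1) secreted by myeloid cells, rose most. Its probe on chromosome 3 (105950485 to 105950544, mm9, minus strand) read 3.35, 2.82 and 3.58 in promiR-29 incisions, against -2.38, -1.84 and -2.86 in intact PBS skin. All mimic-treated wounds were far above all unwounded samples, a 48.8-fold difference (log2 fold change 5.61, SE 1.09, adjusted p 0.00523). The 2 PBS incisions with a value read -1.48 and -1.39 (1 array without a value), nearer to intact skin, and the difference from promiR-29 incisions was 4.68 (SE 1.22, adjusted p 0.133), which did not pass.

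Cxcl5, a chemokine that attracts neutrophils, had -0.72, 0.15 and -0.25 in promiR-29 incisions, against -3.74, -3.85 and -5.50 in intact PBS skin. The groups were separated by over 3 log2 units at their nearest arrays (log2 fold change 4.09, SE 0.79, adjusted p 0.00419), and the skin signal was well above background on 2 of the 3 intact arrays. Slfn4, a Schlafen family gene of myeloid cells, had 3.64, 4.14 and 3.33 in promiR-29 incisions, against -0.19, 0.63 and -1.50 in intact PBS skin (log2 fold change 4.06, SE 0.61, adjusted p 0.00105). Sirpb1b, a signal-regulatory protein of myeloid cells, had 6.23, 6.37 and 6.67 in promiR-29 incisions, against 2.42, 3.23 and 1.87 in intact PBS skin. It was high on every mimic-treated array (log2 fold change 3.92, SE 0.32, adjusted p 5.8e-05). Cd300lf, an inhibitory receptor of myeloid cells, and Mefv, which codes for the inflammasome protein pyrin, were also higher, with log2 fold changes of 3.94 and 3.37 (adjusted p 0.000302 for the first and 0.000339 for the second). Other probes of these last 2 genes gave smaller rises, down to 0.95 for Cd300lf and 1.05 for Mefv. Csta3, a mouse stefin that inhibits cysteine proteases, rose by 3.32 (adjusted p 0.0309), with intact PBS array 3 far below the other intact arrays: 6.71, 6.97 and 5.72 in promiR-29 incisions, against 4.62, 4.34 and 0.47 in intact PBS skin. Its call ended without promiR-29 array 1 (3.20) or 2 (3.07).

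**Figure D1:**
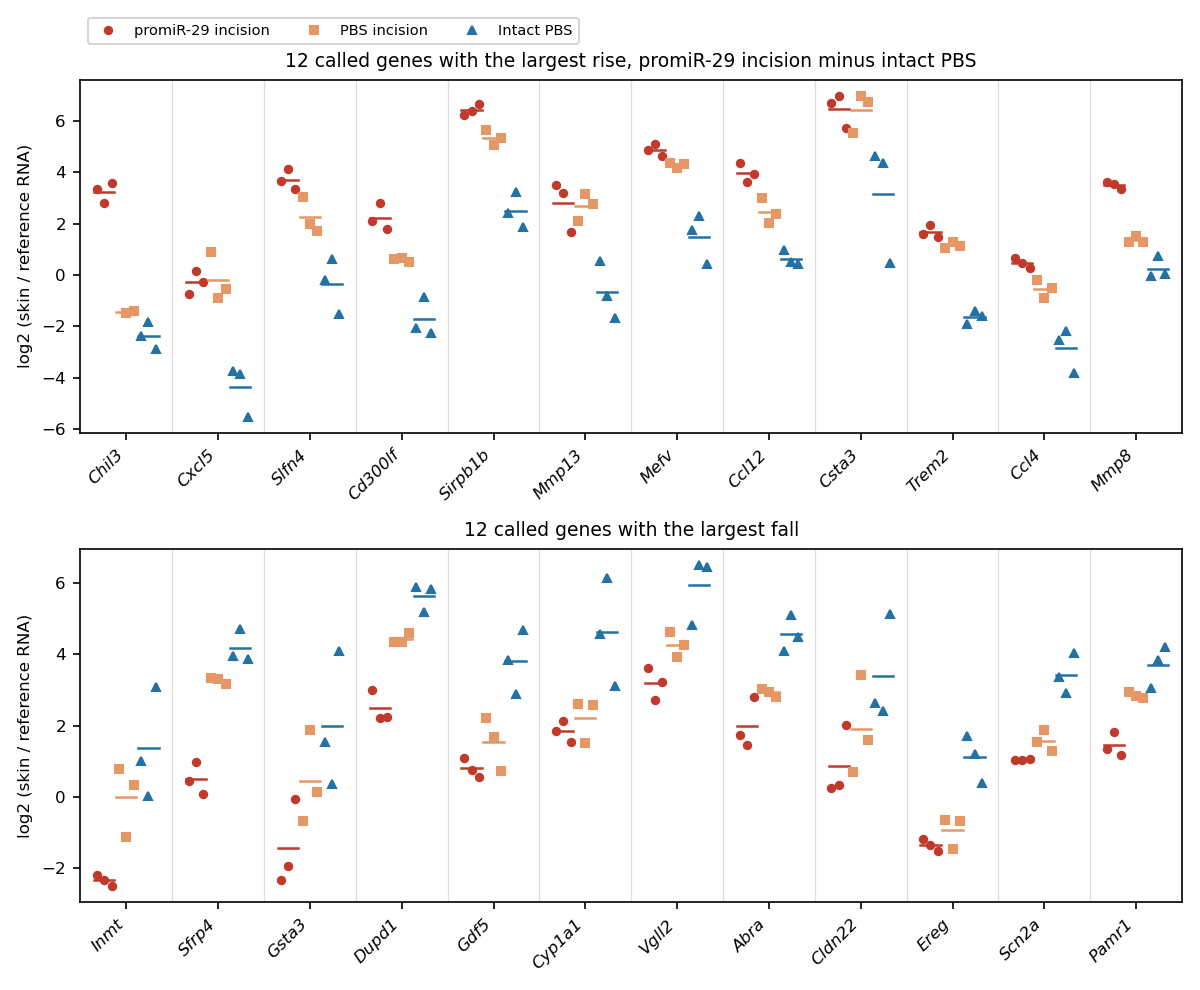
Normalised log2 ratio of skin over reference RNA (y axis) for the 12 called genes with the largest rise (top) and the 12 with the largest fall (bottom), with a point per array and a bar at the group mean for promiR-29 incisions, PBS incisions and intact PBS skin (3 arrays each; Chil3 lacks a value on 1 PBS incision array). The 24 genes were picked among those whose promiR-29 incision and intact arrays do not overlap. Sfrp4 is near 0.51 in promiR-29 incisions, 3.27 in PBS incisions and 4.18 in intact skin on average.

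Among the falls, Sfrp4, a secreted antagonist of Wnt signalling made by fibroblasts, had 0.46, 0.99 and 0.09 in promiR-29 incisions, against 3.95, 4.72 and 3.88 in intact PBS skin. Its probe lies on chromosome 13 (19724488 to 19724547, mm9, plus strand). The groups were apart on every array, a 12.7-fold fall (log2 fold change -3.67, SE 0.30, adjusted p 5.8e-05). Inmt, an indolethylamine N-methyltransferase, had -2.18, -2.34 and -2.50 in promiR-29 incisions, against 1.01, 0.04 and 3.08 in intact PBS skin; its 3 mimic-treated values lay within 0.4 of each other while the intact values were spread (log2 fold change -3.72, SE 0.72, adjusted p 0.00411). Dupd1, a dual-specificity phosphatase of skeletal muscle, had 3.01, 2.23 and 2.23 in promiR-29 incisions, against 5.90, 5.20 and 5.84 in intact PBS skin (log2 fold change -3.15, SE 0.24, adjusted p 3.51e-05).

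Cyp1a1, a cytochrome P450 induced through the aryl hydrocarbon receptor, fell by 2.78 (adjusted p 0.00931), with 1.86, 2.13 and 1.53 in promiR-29 incisions, against 4.58, 6.16 and 3.13 in intact PBS skin. Intact values were widely spread, each above every mimic-treated value as the choice of leading genes required. Ereg, which codes for the EGF receptor ligand epiregulin, fell by 2.47 (adjusted p 0.00164), with -1.18, -1.36 and -1.52 in promiR-29 incisions, against 1.72, 1.21 and 0.41 in intact PBS skin. Gdf5, a growth factor of the BMP family, fell by 3.00 (adjusted p 0.0143) and Pamr1, a secreted protein with a peptidase domain, by 2.27 (adjusted p 0.000674). Vgll2 and Abra, a transcription cofactor and an actin-binding protein of striated muscle, fell by 2.74 and 2.56 (adjusted p 0.00105 and 0.00112). Scn2a, a sodium channel subunit, fell by 2.39 (adjusted p 0.000479) on its brightest probe and by 0.45 on another. The glutathione transferase Gsta3 (-3.45, adjusted p 0.0205) and the claudin Cldn22 (-2.53, adjusted p 0.0473) were less stable, and Cldn22 was well above background on 2 of the 3 promiR-29 arrays. Without promiR-29 array 1, promiR-29 array 2 or intact PBS array 3, neither was called, at -3.01, -3.21 and -2.40 for Gsta3 and -2.21, -2.27 and -1.66 for Cldn22. The call of Cldn22 also ended without intact PBS array 1 (-2.90).

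Nearly all wound macrophage markers were higher in promiR-29 incisions. Of 18 tested wound macrophage markers (19 listed), 17 rose and none fell, with a median log2 fold change of 1.77. Ly6c1 was the exception at 0.00 (adjusted p 0.996). Trem2, a lipid-sensing receptor of macrophages, had 1.59, 1.96 and 1.48 in promiR-29 incisions, against -1.91, -1.42 and -1.57 in intact PBS skin. The mimic-treated arrays were far above every intact array, with little spread in either group (log2 fold change 3.31, SE 0.17, adjusted p 1.02e-05). Msr1, a scavenger receptor that takes up modified lipoproteins, had 2.29, 2.13 and 2.25 in promiR-29 incisions, against -0.09, 0.16 and -0.66 in intact PBS skin (log2 fold change 2.42, SE 0.24, adjusted p 0.000128). Fcgr1, the high-affinity receptor for IgG, rose by 2.90 (adjusted p 0.000171) and the lysosomal glycoprotein Cd68 by 1.76 (adjusted p 0.000218). PBS incisions also had 13 of these 18 genes called above intact skin, where 9.87% of all genes were higher and 5.54% lower. Both wound groups were set against the same intact arrays. With slide as a fixed block, 11 of the 18 were called higher.

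Markers of resident dermal macrophages did not follow. Of 14 markers, 1 rose and 2 fell, and their median was -0.04. The 2 lower genes were Lyve1, a hyaluronan receptor also found on lymphatic vessels (-1.82, adjusted p 0.0127), and Timd4, a receptor for dying cells (-1.43, adjusted p 0.00718). The higher gene was Pf4, a chemokine of platelets and macrophages (1.98, adjusted p 0.00857). Without promiR-29 array 1 the call of Lyve1 ended, at -1.60.

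Genes for lysosomal cathepsins rose with the macrophage markers: 9 of 13 were higher, Ctsf alone was lower (-0.83, adjusted p 0.00455) and the median was 1.03. Lgmn, which codes for the asparaginyl protease legumain, had 3.16, 3.14 and 3.05 in promiR-29 incisions, against 0.39, 1.20 and 0.42 in intact PBS skin. Its groups were far apart with little spread among wounds (log2 fold change 2.45, SE 0.18, adjusted p 3.36e-05). Ctsb, a cysteine cathepsin, had 2.81, 2.59 and 2.84 in promiR-29 incisions, against 0.79, 1.04 and 1.01 in intact PBS skin (log2 fold change 1.80, SE 0.13, adjusted p 3.49e-05). Ctss, the cathepsin that trims the invariant chain in antigen-presenting cells, rose by 2.69 (adjusted p 0.000219). Ctsa rose by 1.07 on its brightest probe (adjusted p 0.000304) and by 0.39 on another.

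Neutrophil genes moved in part. Of 15 tested neutrophil markers (18 listed), 7 rose, none fell and the median was 0.46. Cxcr2, the receptor for neutrophil-attracting chemokines, had 3.36, 3.66 and 3.91 in promiR-29 incisions, against 1.45, 1.80 and 0.71 in intact PBS skin, with no overlap (log2 fold change 2.32, SE 0.27, adjusted p 0.00029). Mmp8, the neutrophil collagenase, had 3.62, 3.53 and 3.35 in promiR-29 incisions, against -0.04, 0.74 and 0.06 in intact PBS skin (log2 fold change 3.24, SE 0.38, adjusted p 0.000325), though it was well above background on 1 of the 3 intact arrays. S100a9, a calprotectin subunit of neutrophils and wounded epidermis, rose by 1.81 (adjusted p 0.000592). The granule enzymes Mpo (0.32, adjusted p 0.101) and Elane (0.24, adjusted p 0.175), which are made in immature neutrophils, were not called. Ly6g, a surface antigen of mature neutrophils, read 0.00 (95% interval -0.80 to 0.80). Without intact PBS array 3, 2 neutrophil markers were called lower.

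Of 12 tested cytokines that recruit neutrophils (15 listed), 6 rose and none fell, with a median of 1.04. Without intact PBS array 3, 4 were called higher and 2 lower; 4 were also called higher without promiR-29 array 2 or 3. Il1b, the inflammasome-processed cytokine interleukin-1 beta, had 3.47, 3.79 and 4.08 in promiR-29 incisions, against 1.12, 1.00 and 0.18 in intact PBS skin. Every wound was above every intact sample by 2 log2 units or more (log2 fold change 3.02, SE 0.54, adjusted p 0.00285). Tnf rose by 1.11 (adjusted p 0.00291) and Ppbp, the platelet basic protein from which a neutrophil chemokine is cut, by 2.61 (adjusted p 0.0127). Ppbp lost its call when only the 6 arrays compared were fitted (2.61) and within slide 2 (2.66). Il1f6, an interleukin-36 gene, was at -0.36 and not called, but at -1.06 and called lower without intact PBS array 3, and at -1.13 and called lower with slide as a fixed block.

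CC chemokines, which attract monocytes and other leukocytes, were higher for 9 of 17 tested genes (20 listed), with none lower and a median of 0.68. Ccl12, a mouse monocyte chemoattractant, had 4.37, 3.62 and 3.92 in promiR-29 incisions, against 0.98, 0.50 and 0.42 in intact PBS skin (log2 fold change 3.34, SE 0.45, adjusted p 0.000634). Ccl4 and Ccl3, macrophage inflammatory proteins, rose by 3.30 and 1.81 (adjusted p 0.000549 and 0.000511). Ccl7, a further monocyte chemoattractant, had 1.96, 1.79 and 1.99 in promiR-29 incisions, against -0.20, -0.63 and -2.33 in intact PBS skin (log2 fold change 2.96, SE 0.53, adjusted p 0.0027). The eotaxin Ccl24 was at -1.06 (adjusted p 0.0663) and was not called; it was called lower with array weights, within slide 2, with a term for slide (-1.53) and on leaving out intact PBS array 3 (-1.57).

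**Figure D2:**
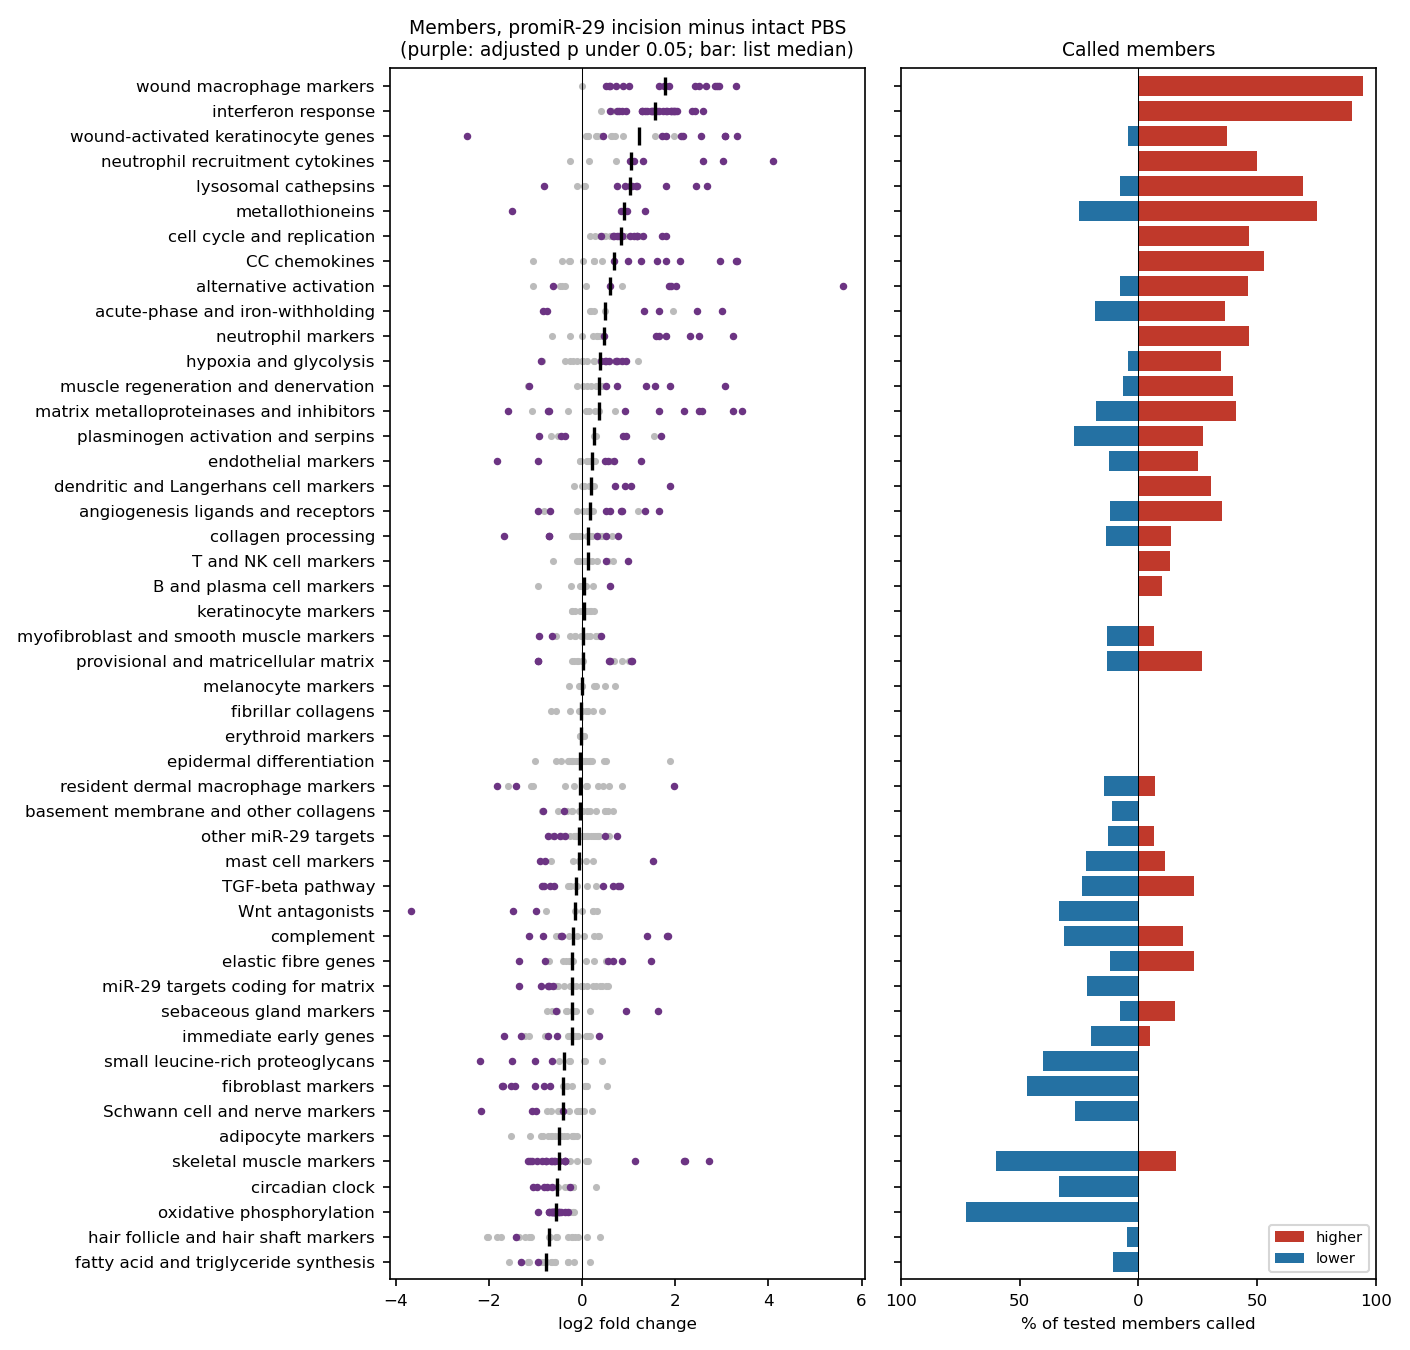
Left, log2 fold change of promiR-29 incisions minus intact PBS skin (x axis) for every tested member of 48 gene lists, sorted by list median (black bar), with called members in purple. Right, percent of tested members called, higher to the right of 0 and lower to the left. Wound macrophage markers (17 of 18) and the interferon response (27 of 30) have the highest shares called higher, and oxidative phosphorylation (21 of 29) the highest share called lower; fibrillar collagens, keratinocyte markers and epidermal differentiation have none.

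Interferon-response genes formed the second uniform group. Of 30, 27 rose, none fell and the median was 1.56. Dhx58, a regulator of the RNA sensors of the RIG-I family, had 2.11, 2.20 and 1.71 in promiR-29 incisions, against 0.24, 0.36 and -0.04 in intact PBS skin (log2 fold change 1.82, SE 0.19, adjusted p 0.000205). Ddx58, the RNA sensor RIG-I itself, rose by 1.28 (adjusted p 0.000301). Oas2, which makes the 2-5A activator of RNase L, rose by 2.03 (adjusted p 0.000352) and Trim30a, a mouse tripartite-motif protein, by 1.81 (adjusted p 0.000418). Wounds lay above intact skin on every array for these 4 genes. Isg15, a ubiquitin-like modifier, had 1.50, 1.65 and 1.00 in promiR-29 incisions, 1.80, 0.77 and 1.07 in PBS incisions and -0.36, -0.66 and -1.95 in intact PBS skin (log2 fold change 2.37, SE 0.47, adjusted p 0.00454 for promiR-29 incisions). Ifit1, which binds foreign RNA, had 1.96, 1.70 and 1.23 in promiR-29 incisions, 1.76, 0.48 and 0.81 in PBS incisions and 0.04, -0.49 and -0.67 in intact PBS skin (log2 fold change 2.00, SE 0.47, adjusted p 0.0113). The PBS incisions overlapped the mimic-treated wounds for both genes. In PBS incisions 24 of the 30 were called above the same intact arrays, beside 9.87% of all genes. None of the 30 was called between promiR-29 and PBS incisions, where 0.589% of all genes were called. At that share a count of 0 says little about these genes, whose median difference was 0.30. Within slide 2 (2 arrays a group), 17 of the 30 were called higher.

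The upstream sequences of 2 of these genes are shown because they carry the interferon-stimulated response element core, the site bound by the interferon-activated complex ISGF3. Each is the 250 bases before the RefSeq gene start, written on the gene's strand (GRCm38.p6). Capitals mark matches, on either strand, to GAAA followed by any 2 bases and GAAA again. Isg15 lies at chr4:156200819-156201068 (minus strand) with 3 overlapping matches, the first 78 bases before the start. Ifit1 lies at chr19:34640639-34640888 (plus strand) with 2 matches on the opposite strand, the first 104 bases before the start.
Isg15: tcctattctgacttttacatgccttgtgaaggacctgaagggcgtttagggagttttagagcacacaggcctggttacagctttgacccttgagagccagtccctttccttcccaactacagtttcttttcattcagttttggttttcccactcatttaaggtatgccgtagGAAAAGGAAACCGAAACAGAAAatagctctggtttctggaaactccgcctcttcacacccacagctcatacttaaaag
Ifit1: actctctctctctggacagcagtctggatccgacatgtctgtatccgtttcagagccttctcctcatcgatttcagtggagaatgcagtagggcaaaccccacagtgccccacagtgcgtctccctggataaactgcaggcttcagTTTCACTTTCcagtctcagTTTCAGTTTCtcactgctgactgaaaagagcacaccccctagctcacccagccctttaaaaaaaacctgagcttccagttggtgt
Of the 30 interferon genes, 22 had an upstream window and 12 of these (54.5%) held a match, beside 936 of 27025 genes with a window (3.46%). A match describes these letters only.

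Matrix metalloproteinases and their inhibitors changed in both directions, with 7 of 17 tested higher (19 listed), 3 lower and a median of 0.37. Mmp13, the interstitial collagenase of mouse, had 3.49, 3.19 and 1.68 in promiR-29 incisions, against 0.54, -0.80 and -1.69 in intact PBS skin. The third mimic-treated array was the lowest of these wounds (log2 fold change 3.43, SE 0.59, adjusted p 0.00218). Mmp9, a gelatinase of neutrophils, macrophages and wound-edge keratinocytes, rose by 2.50 (adjusted p 0.000549), and Mmp3, stromelysin 1, by 1.65 (adjusted p 0.0072). Timp1, a secreted inhibitor of these proteases, had 0.86, 0.76 and 0.22 in promiR-29 incisions, against -1.63, -1.06 and -2.05 in intact PBS skin (log2 fold change 2.19, SE 0.26, adjusted p 0.000325). Timp3, an inhibitor held in the matrix, went the other way, with -1.14, -1.26 and -1.02 in promiR-29 incisions, against 0.40, 0.05 and 0.93 in intact PBS skin (log2 fold change -1.60, SE 0.19, adjusted p 0.000381). The gelatinase Mmp2 fell by 0.74 (adjusted p 0.0264), a call that ended without promiR-29 array 2 (-0.73), promiR-29 array 3 (-0.61) or intact PBS array 2 (-0.66). Timp2 was lower on its brightest probe (-0.72, adjusted p 0.0129) but not on a second probe (0.07). Within slide 2 the call of Mmp13 ended.

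The Mmp13 upstream window is shown because AP-1, the Fos and Jun factor, is known to drive collagenase genes through the site TGANTCA. The window lies at chr9:7272264-7272513 (plus strand, GRCm38.p6) and holds 1 match, in capitals, 35 bases before the start.
Mmp13: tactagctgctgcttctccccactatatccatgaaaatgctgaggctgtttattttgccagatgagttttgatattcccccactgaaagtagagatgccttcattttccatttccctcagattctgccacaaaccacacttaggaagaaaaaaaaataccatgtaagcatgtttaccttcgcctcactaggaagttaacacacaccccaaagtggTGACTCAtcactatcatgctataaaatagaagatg
The same letters occurred in 4 of 14 metalloproteinase and inhibitor genes with a window (28.6%; Mmp3, Mmp10, Mmp12 and Mmp13) and in 2113 of 27025 genes (7.82%), counting both strands.

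Genes of alternative macrophage activation were higher for 6 of 13 tested (14 listed), lower for 1, with a median of 0.59. Besides Chil3, the related chitinase-like gene Chil4 had 1.76, 1.49 and 2.91 in promiR-29 incisions, against -0.13, 0.24 and -0.02 in intact PBS skin (log2 fold change 2.02, SE 0.31, adjusted p 0.00122). Its skin signal was well above background on 1 intact array. Arg1, the arginase of repair macrophages, had 5.44, 5.08 and 4.74 in promiR-29 incisions, 5.06, 5.17 and 5.24 in PBS incisions and 3.48, 2.88 and 3.28 in intact PBS skin (log2 fold change 1.87, SE 0.29, adjusted p 0.00124 for promiR-29 incisions). It was high in both kinds of wound. Il4ra, a receptor subunit for interleukins 4 and 13, rose by 1.90 (adjusted p 0.000718) on its brightest probe and by 0.54 on another. Retnla, a resistin-like protein of alternatively activated macrophages, was the lower gene (-0.63, adjusted p 0.0277); it was not called without promiR-29 array 2 or 3 (-0.68 and -0.44) or intact PBS array 1 or 2 (-0.61 and -0.55). Mrc1, the mannose receptor, was at 0.86 (adjusted p 0.076).

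Of 4 metallothioneins, 3 rose and 1 fell. Mt2, a metal-binding stress protein, had 1.73 and 1.27 (1 array without a value) in promiR-29 incisions, 0.28, 0.05 and -0.04 in PBS incisions and -0.15, 0.62 and 0.00 in intact PBS skin (log2 fold change 1.34, SE 0.23, adjusted p 0.00281 for promiR-29 incisions against intact skin). Mt3 rose by 0.83 (adjusted p 0.00115). Mt4, the form of stratified epithelium, fell by 1.52 (adjusted p 0.00319). Mt1 was called at 0.96 (adjusted p 0.0338), without a value on promiR-29 array 3, and the call ended without promiR-29 array 1 (0.62), intact PBS array 1 (0.71) or intact PBS array 3 (0.95), and with the replicate number as a block (adjusted p 0.0582). Of 11 tested acute-phase and iron-withholding genes (13 listed), 4 rose and 2 fell. The serum amyloid Saa3 rose by 3.01 (adjusted p 0.0108) and Slc11a1, an iron transporter of phagosomes, by 1.33 (adjusted p 0.00146). The orosomucoid genes Orm1 and Orm2 were lower (-0.85, adjusted p 0.0187 for the first and -0.76, adjusted p 0.0295 for the second). These counts were 2 higher and 1 lower without promiR-29 array 1; without intact PBS array 2 there was 1 lower, and without promiR-29 array 2 or intact PBS array 3 none was lower. Of 16 complement genes 3 rose and 5 fell, and 2, 1 and 3 fell without promiR-29 arrays 1, 2 and 3 in turn. Over all genes, 13.7% were called higher and 10.5% lower. The receptors for complement fragments, C3ar1 and C5ar1, rose by 1.82 and 1.85 (adjusted p 4.33e-05 and 0.000538).

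Markers of other leukocytes differed by list in the share called. Dendritic and Langerhans cell markers were higher for 4 of 13 tested, T and NK cell markers for 2 of 15 and B and plasma cell markers for 1 of 10, with none lower, beside 13.7% of all genes called higher. The dendritic and Langerhans cell share was above that background, and the T, NK, B and plasma cell shares were not. With slide as a fixed block 2 of the 13 dendritic and Langerhans cell markers were called higher. Of 9 tested mast cell markers (12 listed), 1 rose and 2 fell; none was called higher without any 1 of the 6 arrays. Without promiR-29 array 1 or 2 or intact PBS array 1 or 3, no T, NK, B or plasma cell marker was called higher. Ccr7, the lymph-node homing receptor, rose by 1.89 (adjusted p 0.00599), and Flt3, a receptor of dendritic cell precursors, by 0.91 (adjusted p 0.002) with a second probe at 0.06. The perforin gene Prf1 (0.21, adjusted p 0.184) and granzyme B gene Gzmb (0.56, adjusted p 0.258) were not called.

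Among genes of the epidermis, some wound-activated keratinocyte genes were higher, and the genes of ordinary differentiation were not called. Of 24 tested wound-activated genes (25 listed), 9 rose and 1, Ereg, fell, with a median of 1.22. S100a9, counted among the 9, is also on the list of neutrophil markers. Sprr2f, a cornified-envelope protein, had 4.75, 4.62 and 3.37 in promiR-29 incisions, against 1.08, 1.76 and 0.72 in intact PBS skin (log2 fold change 3.06, SE 0.54, adjusted p 0.0026). Itga5, a fibronectin receptor subunit of migrating cells, rose by 0.45 (adjusted p 0.0092). The wound keratin Krt6b had 7.89, 7.82 and 7.55 in promiR-29 incisions, against 6.88, 7.18 and 3.30 in intact PBS skin. Intact PBS array 3 was far below the others, and the gene was not called (log2 fold change 1.97, SE 0.84, adjusted p 0.113). The keratins Krt6a (0.30), Krt16 (0.65) and Krt17 (0.12) of the same list were not called either. Without promiR-29 array 1 or 2 the count of higher genes was 3, without intact PBS array 3 it was 5, and the median was 0.46 without the last. Other alternatives gave counts from 2 (only the 6 arrays compared) to 10 (the Cy5 channel alone), with 3 for slide as a fixed block. None of 28 epidermal differentiation genes was called, with a median of -0.04, and 3 were called lower without intact PBS array 3. Loricrin (Lor), the main envelope protein, was at -0.28 (95% interval -0.62 to 0.06).

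Cell cycle genes leaned upward in a way that a few arrays decided. Of 30 tested (32 listed), 14 rose and none fell, with a median of 0.84. Kif20a, a kinesin of cytokinesis, had -1.20, -0.78 and -1.56 in promiR-29 incisions, against -1.92, -2.14 and -3.38 in intact PBS skin (log2 fold change 1.30, SE 0.33, adjusted p 0.0171). Mki67, the proliferation marker, had -1.05, -1.04 and -1.60 in promiR-29 incisions, against -1.57, -1.88 and -3.99 in intact PBS skin. Intact PBS array 3 was again the lowest and the gene was not called (1.25, adjusted p 0.111). The count was 2 without promiR-29 array 1, 0 without promiR-29 array 2, 22 without intact PBS array 1 and 7 without intact PBS array 3, and 0 with slide as a fixed block. The call of Kif20a ended without promiR-29 array 2 (adjusted p 0.0742).

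**Figure D3:**
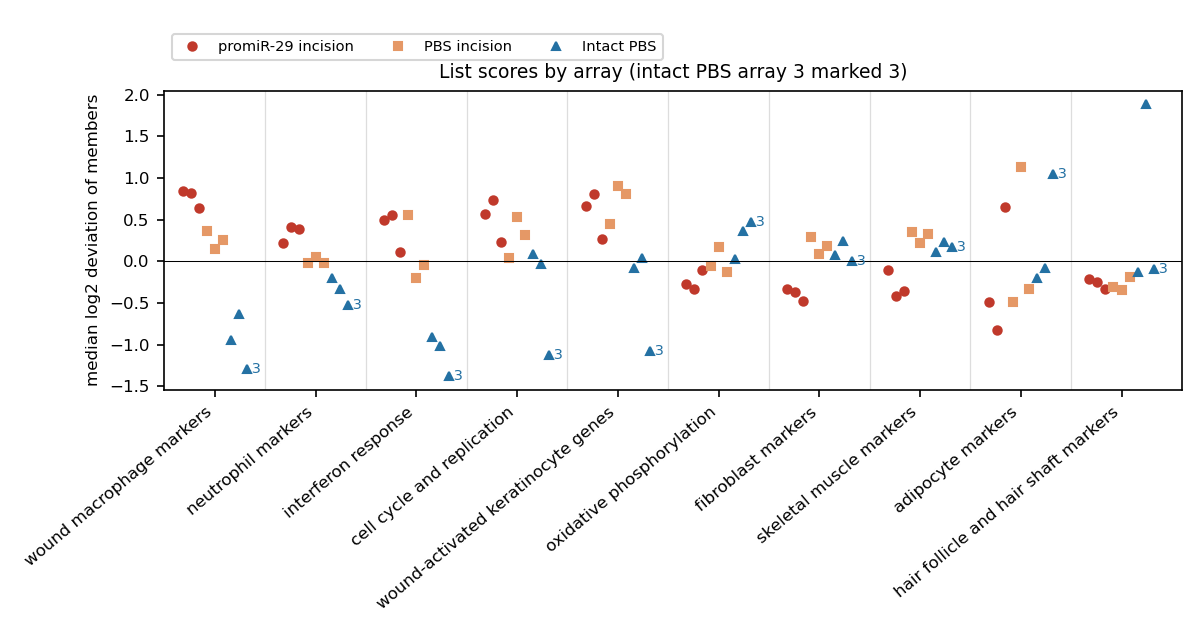
Median deviation of a list's members, each taken from its mean over all 12 arrays, on the log2 scale (y axis), for 10 gene lists, with a point per array for promiR-29 incisions, PBS incisions and intact PBS skin. Intact PBS array 3 carries a 3 and is the lowest point for cell cycle (-1.13) and wound-activated keratinocyte genes (-1.07); intact PBS array 2 is the highest point for hair markers (1.88).

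Hypoxia and glycolysis genes were higher for 8 of 23, and the muscle-rich aldolase Aldoa was lower (-0.89, adjusted p 0.026; median of the list 0.39). Pgam1, a glycolytic mutase, rose by 0.86 (adjusted p 0.0012), Pfkfb4, which sets the level of a glycolytic activator, by 0.72 (adjusted p 0.000823) and Slc2a1, the glucose transporter GLUT1, by 0.95 (adjusted p 0.00459). The count of higher genes was 4 with slide as a fixed block, 4 from the Cy5 channel alone and 2 within slide 2, and Aldoa was not called without promiR-29 array 1 or 2 or intact PBS array 1 or 2, from Cy5 alone or with slide as a fixed block. Genes for oxidative phosphorylation were lower for 21 of 29, none higher, with a median of -0.55. Atp5a1, a subunit of the ATP synthase, had 0.45, 0.42 and 0.50 in promiR-29 incisions, against 0.82, 0.96 and 0.94 in intact PBS skin, small shifts with tight groups (log2 fold change -0.45, SE 0.07, adjusted p 0.0017). Uqcrfs1, an iron-sulfur subunit of complex III, had 0.33, -0.01 and 0.48 in promiR-29 incisions, against 0.83, 1.30 and 1.50 in intact PBS skin (log2 fold change -0.95, SE 0.17, adjusted p 0.00287). Without promiR-29 array 2 the count of lower genes was 11, with slide as a fixed block 8, from the Cy5 channel alone 5 and within slide 2 it was 0. Of 25 skeletal muscle markers 15 were lower and 4 higher, and of 18 adipocyte markers none was called. The muscle score, the median deviation of the markers from their 12-array means on the log2 scale, was -0.11, -0.41 and -0.35 in promiR-29 incisions and 0.12, 0.23 and 0.17 in intact skin, and the adipocyte score was -0.49, -0.82 and 0.65 in promiR-29 incisions and -0.20, -0.08 and 1.05 in intact skin. Their part in the result was not tested.

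The extracellular matrix showed no uniform rise against intact skin. None of 10 tested fibrillar collagen genes (11 listed) was called, with a median of -0.02. Col1a1, the main chain of type I collagen, had 1.75, 1.29 and 0.28 in promiR-29 incisions, 2.76, 2.13 and 2.28 in PBS incisions and 2.17, 2.71 and 0.44 in intact PBS skin. Mimic-treated and intact arrays overlapped, with intact PBS array 3 low (log2 fold change -0.66, 95% interval -1.79 to 0.46, adjusted p 0.383). Col1a2, its partner chain, was at -0.55 (95% interval -1.52 to 0.41). Without intact PBS array 3 both were called lower, Col1a1 at -1.33 and Col1a2 at -1.12, and with slide as a fixed block likewise, at -1.65 and -1.37. Col3a1, the collagen of early repair tissue, had 2.34, 2.19 and 1.48 in promiR-29 incisions, 3.83, 3.32 and 3.20 in PBS incisions and 2.09, 2.64 and -0.01 in intact PBS skin. PBS incisions were above both other groups on every array, and were called against intact skin (log2 fold change 1.88, adjusted p 0.0488), while promiR-29 incisions overlapped intact skin (log2 fold change 0.43, 95% interval -0.83 to 1.69, adjusted p 0.631). The direct difference between promiR-29 and PBS incisions was -1.45 (95% interval -2.71 to -0.19, adjusted p 0.326) and was not called. Col5a1, a collagen that starts fibrils, had -0.25, -0.48 and -0.76 in promiR-29 incisions, 0.54, 0.54 and 0.54 in PBS incisions and -0.09, -0.01 and -1.29 in intact PBS skin, again with PBS incisions highest (promiR-29 minus PBS incisions -1.04, adjusted p 0.199).

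Described miR-29 targets that code for matrix were lower for 5 of 23, none higher, with a median of -0.21. The median turned to 0.08 without intact PBS array 2, and was -0.53 with slide as a fixed block and -0.46 without intact PBS array 3. Eln, which codes for elastin, had 0.99, 0.68 and 1.05 in promiR-29 incisions, against 1.90, 2.70 and 2.18 in intact PBS skin. Wounds lay below intact skin on every array (log2 fold change -1.35, SE 0.26, adjusted p 0.00372). Nid1, nidogen of the basement membrane, had 0.27, 0.23 and 0.64 in promiR-29 incisions, against 0.92, 1.32 and 1.58 in intact PBS skin (log2 fold change -0.89, SE 0.22, adjusted p 0.0151). Lamc1, a laminin chain, fell by 0.63 (adjusted p 0.0123). Adamts2, the protease that trims procollagen ends, fell by 0.71 (adjusted p 0.00501), and the remaining lower target, Mmp2, is given above. Fbn1, fibrillin of microfibrils, was at -0.21 (95% interval -1.23 to 0.82). Without promiR-29 array 2 the count was 2: Lamc1 was then at -0.54 and Nid1 at -0.82, and Nid1 also lost its call without promiR-29 array 1 (-0.84). Without intact PBS array 3 the count was 7, and within slide 2 it was 2. The list's share called lower, 5 of 23, stands beside 10.5% of all genes.

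Of 31 tested targets outside the matrix (32 listed), 2 rose and 4 fell, a share near that of all genes (median -0.06). Bcl2l11, the pro-apoptotic BIM, was higher on its brightest probe (0.75, adjusted p 0.00092) and at 0.14 on another. Cdc42, a small GTPase of cell polarity, rose by 0.48 (adjusted p 0.00295). Dnmt3a, a DNA methyltransferase, had -0.08, -0.27 and -0.31 in promiR-29 incisions, 0.36, 0.25 and 0.25 in PBS incisions and 0.29, 0.55 and -0.10 in intact PBS skin (log2 fold change -0.47, SE 0.14, adjusted p 0.0338), with mimic-treated and intact arrays overlapping. The related Dnmt3b (0.01, 95% interval -0.26 to 0.28) and the survival gene Mcl1 (0.03, 95% interval -0.20 to 0.27) were not called. The lower count was 0 without promiR-29 array 2, and 1 without promiR-29 array 3, intact PBS array 1 or intact PBS array 2. Dnmt3a then read -0.44, -0.42, -0.45 and -0.31.

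**Figure D4:**
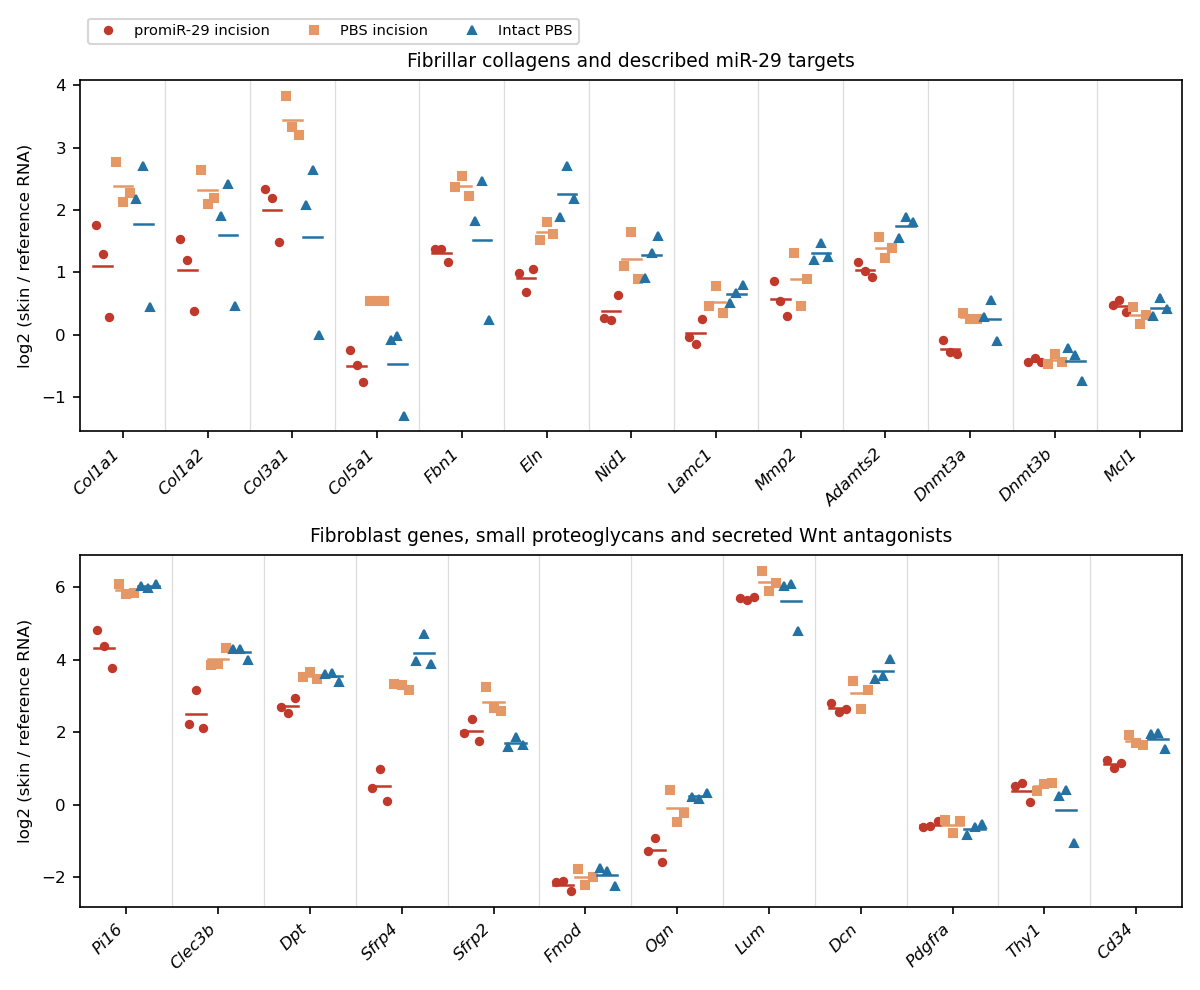
Normalised log2 ratio of skin over reference RNA (y axis), a point per array and a bar at the group mean, for fibrillar collagens and described miR-29 targets (top) and for fibroblast genes, small proteoglycans and Wnt antagonists (bottom). For Col3a1 the PBS incisions read 3.83, 3.32 and 3.20, above every array of the other groups; for Pi16 and Clec3b the promiR-29 incisions lie below every array of both other groups.

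Fibroblast markers fell in part. Of 15, 7 were lower, none higher and the median was -0.40, which was -0.27 without intact PBS array 2. Pi16, a peptidase inhibitor of adventitial fibroblasts, had 4.81, 4.37 and 3.77 in promiR-29 incisions, 6.10, 5.80 and 5.84 in PBS incisions and 6.04, 5.98 and 6.09 in intact PBS skin. Only the mimic-treated wounds were low (log2 fold change -1.72, SE 0.22, adjusted p 0.000479 against intact skin). Clec3b, tetranectin, had 2.22, 3.15 and 2.11 in promiR-29 incisions, 3.85, 3.88 and 4.32 in PBS incisions and 4.30, 4.30 and 3.99 in intact PBS skin (log2 fold change -1.71, SE 0.25, adjusted p 0.000894), and Dpp4, a membrane dipeptidase of upper dermal and fascial fibroblasts, had 0.97, 1.27 and 0.63 in promiR-29 incisions, 2.10, 1.71 and 1.59 in PBS incisions and 2.45, 2.28 and 2.43 in intact PBS skin (log2 fold change -1.43, SE 0.18, adjusted p 0.000453). Dpt, dermatopontin, fell by 0.82 (adjusted p 0.00275) and Cd34 by 0.70 (adjusted p 0.00369). The broad fibroblast marker Pdgfra was at 0.11 (95% interval -0.42 to 0.63) and the marker Thy1 at 0.53 (adjusted p 0.278). Of the 15, 0 were called between PBS incisions and intact skin, set against the same intact arrays. Over all genes 9.87% were called higher and 5.54% lower there, so few of 15 would be called at those shares.

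Small leucine-rich proteoglycans, which bind collagen fibrils, were lower for 4 of 10 tested (11 listed) with none higher (median -0.39, and -0.25 without intact PBS array 2). Omd, osteomodulin, had -0.41, -0.31 and -0.83 in promiR-29 incisions, against 1.34, 1.72 and 1.96 in intact PBS skin (log2 fold change -2.19, SE 0.32, adjusted p 0.00101), and Ogn, osteoglycin, had -1.28, -0.91 and -1.58 in promiR-29 incisions, against 0.22, 0.15 and 0.34 in intact PBS skin (log2 fold change -1.49, SE 0.28, adjusted p 0.00355). Decorin (Dcn) fell by 1.02 (adjusted p 0.00809) and Podn by 0.64 (adjusted p 0.00537), while lumican (Lum) was at 0.06 (95% interval -0.81 to 0.93). Among 9 tested secreted Wnt antagonists (11 listed), Sfrp5 and Frzb fell with Sfrp4, by 1.48 and 0.99 (adjusted p 0.000566 and 0.00443), and none rose. Of 17 elastic fibre genes 4 rose and 2 fell. Efemp2, a fibulin needed for elastin assembly, rose by 1.47 (adjusted p 0.00217), opposite to Eln. Ltbp4, a latent TGF-beta binding protein, fell by 0.81 (adjusted p 0.000276), with a probe as small as -0.19. Of 17 tested TGF-beta pathway genes (18 listed), 4 rose and 4 fell, with a median of -0.14, beside 13.7% of all genes higher and 10.5% lower. The ligand Tgfb1 had 0.29, 0.34 and 0.23 in promiR-29 incisions, against -0.54, -0.42 and -0.61 in intact PBS skin (log2 fold change 0.81, SE 0.08, adjusted p 0.000169). The ligands Tgfb2 (-0.83, adjusted p 0.0208) and Tgfb3 (-0.60, adjusted p 0.0488) and the receptors Tgfbr2 (-0.69, adjusted p 0.00165) and Tgfbr3 (-0.85, adjusted p 0.00431) were lower. The lower genes were 2, Tgfbr2 and Tgfbr3, without promiR-29 array 1 or 3 or intact PBS array 1 or 3.

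Skeletal muscle genes changed in both directions. The panniculus carnosus, a thin muscle sheet, lies under mouse skin. Of 25 muscle markers, 15 were lower and 4 were higher, with a median of -0.50. Slow-fibre troponins and myosin made up the higher genes. Tnnc1, slow troponin C, had 2.27, 2.33 and 1.89 in promiR-29 incisions, 2.80, 3.23 and 2.23 in PBS incisions and -0.78, -0.68 and -0.20 in intact PBS skin. Both kinds of wound were far above intact skin (log2 fold change 2.72, SE 0.32, adjusted p 0.000309 for promiR-29 incisions). Tnni1, slow troponin I, had 3.06, 3.20 and 2.64 in promiR-29 incisions, 3.77, 3.95 and 3.46 in PBS incisions and 0.60, 0.79 and 0.85 in intact PBS skin (log2 fold change 2.22, SE 0.23, adjusted p 0.000171). Myh7, the slow myosin heavy chain, rose by 1.14 (adjusted p 0.00141) and Tnnt1, slow troponin T, by 2.19 (adjusted p 0.0262). The call of Tnnt1 ended without promiR-29 array 1 (2.07) or 2 (2.09) or intact PBS array 3 (1.69).

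The lower genes included fast-fibre and shared sarcomere genes. Myh1, a fast myosin heavy chain, had 6.02, 5.87 and 5.83 in promiR-29 incisions, 6.39, 6.47 and 6.56 in PBS incisions and 6.45, 6.65 and 6.63 in intact PBS skin. Mimic-treated wounds were the lowest group on every array (log2 fold change -0.67, SE 0.09, adjusted p 0.000806). Atp2a1, the fast calcium pump SERCA1, had 4.17, 3.55 and 4.13 in promiR-29 incisions, 4.94, 4.68 and 4.90 in PBS incisions and 4.84, 5.09 and 4.79 in intact PBS skin (log2 fold change -0.96, SE 0.17, adjusted p 0.00233). Mylpf, a fast myosin light chain, fell by 1.15 (adjusted p 0.00418) and Ttn, titin, by 1.07 (adjusted p 0.00293), with a titin probe as small as -0.17. Myh4, another fast myosin, was at 0.08 (95% interval -0.20 to 0.36). The count of lower genes was 9 without promiR-29 array 2 or without intact PBS array 2.

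**Figure D5:**
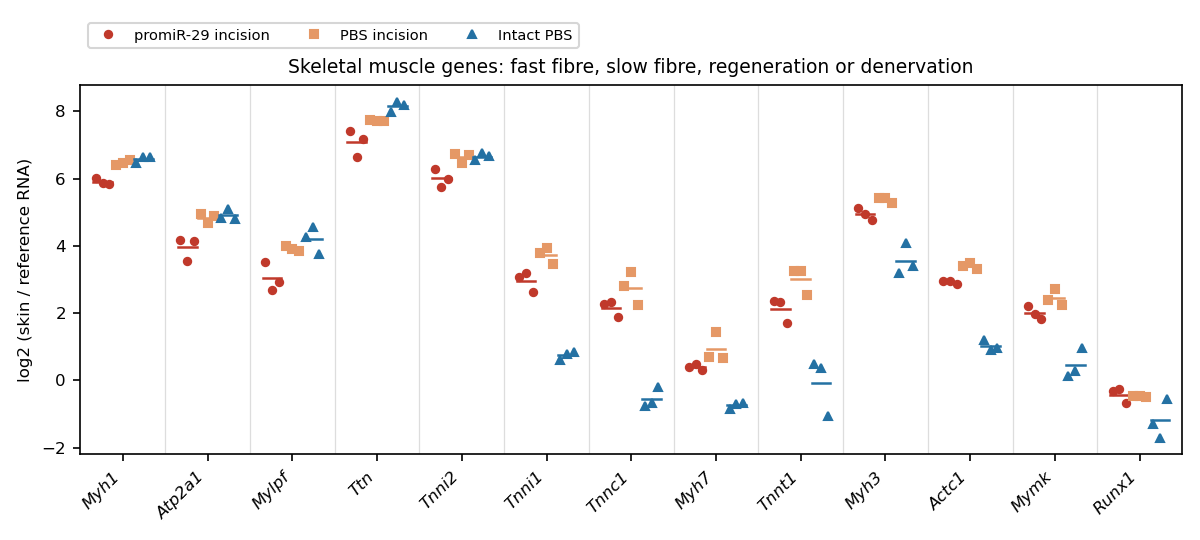
Normalised log2 ratio of skin over reference RNA (y axis), a point per array and a bar at the group mean, for fast-fibre or shared genes (Myh1 to Tnni2), slow-fibre genes (Tnni1 to Tnnt1) and regeneration or denervation genes (Myh3 to Runx1). Tnnc1 reads 1.89 to 2.33 in promiR-29 incisions and -0.78 to -0.20 in intact skin, while Myh1 reads 5.83 to 6.02 in promiR-29 incisions and 6.45 to 6.65 in intact skin.

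Of 15 tested genes of muscle regeneration or denervation (16 listed), 6 rose and 1 fell, with a median of 0.37. That median was 0.17 and 0.61 without promiR-29 arrays 1 and 3, and 0.23, 0.07 and 0.67 without intact PBS arrays 1, 2 and 3. Mymk, the fusion protein myomaker, had 2.22, 1.97 and 1.83 in promiR-29 incisions, against 0.12, 0.27 and 0.96 in intact PBS skin (log2 fold change 1.55, SE 0.21, adjusted p 0.000674). Actc1, the actin of developing muscle, had 2.95, 2.95 and 2.87 in promiR-29 incisions, against 1.20, 0.91 and 0.96 in intact PBS skin (log2 fold change 1.90, SE 0.30, adjusted p 0.00147). Embryonic myosin, Myh3, rose by 1.38 (adjusted p 0.0216), a call that ended without promiR-29 array 1 (1.29) or 2 (1.38) or intact PBS array 1 (1.20) or 3 (1.29). Mest, an imprinted gene of growing tissue, rose by 3.06 (adjusted p 0.000695) on its brightest probe and by 0.90 on another. The myogenic factors Myod1 (-0.12, adjusted p 0.877) and Myog (0.29, adjusted p 0.638) were not called, and Myf6, the factor of mature fibres, fell by 1.13 (adjusted p 0.0168; -0.87 and not called without promiR-29 array 2). The count of higher genes was 3 without promiR-29 array 1, promiR-29 array 2 or intact PBS array 1.

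Some genes of the circadian clock and of nerve were lower, beside 10.5% of all genes called lower and 13.7% called higher. Of 18 circadian clock genes 6 fell and none rose (median -0.53, and -0.34 without promiR-29 array 3). The repressor gene Cry2 fell by 0.96 (adjusted p 0.000724), by 0.44 on another probe, and Nr1d1, the repressor REV-ERB alpha, by 1.06 (adjusted p 0.00287). The count was 2 without promiR-29 array 2, and 1 clock gene was called higher without promiR-29 array 3 or intact PBS array 2. The hour of collection was not used here. Of 20 tested immediate early genes (21 listed) 4 fell and 1 rose; Dusp1 and Nr4a1 fell by 1.31 and 1.68 (adjusted p 0.00165 and 0.00557). Of 15 Schwann cell and nerve markers 4 fell, among them Prx, which codes for the myelin protein periaxin, with -0.77, 0.27 and -0.52 in promiR-29 incisions, against 1.67, 1.03 and 2.77 in intact PBS skin (log2 fold change -2.16, SE 0.48, adjusted p 0.00882); the count was 2 without promiR-29 array 1, promiR-29 array 3 or intact PBS array 3, and 2 with the replicate number as a block.

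None of 18 adipocyte markers was called (median -0.50). The median was -0.25 without promiR-29 array 2, -0.92 without promiR-29 array 3, when 1 marker was called lower, -0.19 without intact PBS array 3 and -0.03 when slide was a fixed block. Adiponectin (Adipoq) had 5.04, 4.61 and 5.94 in promiR-29 incisions, against 5.52, 5.53 and 6.05 in intact PBS skin (-0.50, adjusted p 0.26), with overlapping groups. In fatty acid and triglyceride synthesis 2 of 19 genes were called lower, a share near the 10.5% of all genes. They were Acacb, an acetyl-CoA carboxylase, which fell by 0.94 (adjusted p 0.00124), and Thrsp, which fell by 1.30 (adjusted p 0.0223). The call of Thrsp ended without promiR-29 array 1 (-1.07), promiR-29 array 2 (-1.03) or intact PBS array 3 (-1.15). The count was 5 without promiR-29 array 3, and 4 without intact PBS array 1 or 2. Among the 6 compared arrays the adipocyte score, given above, was highest on intact PBS array 3. On PBS incision array 2 it was higher still, at 1.14. Of 21 tested hair markers (26 listed) only Krt72, a keratin of the inner root sheath, was called (-1.41, adjusted p 0.0299). The hair score was -0.21, -0.25 and -0.33 on promiR-29 arrays 1 to 3, against -0.13, 1.88 and -0.09 on intact PBS arrays 1 to 3. The call of Krt72 ended without any of promiR-29 arrays 1, 2 and 3 or intact PBS arrays 1 and 2 (-1.48, -1.26, -1.49, -1.32 and -1.09). Without intact PBS arrays 1, 2 and 3 in turn, the count of lower hair markers was 6, 3 and 4, and their median without intact PBS array 2 was -0.12.

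Vessel genes changed in both directions. Of 17 tested angiogenesis genes (18 listed), 6 rose and 2 fell, beside 13.7% of all genes higher and 10.5% lower. Without promiR-29 array 1 or 2 or intact PBS array 3, 1 fell. Apln, the endothelial tip-cell peptide apelin, rose by 1.66 (adjusted p 0.00231) and Angpt2, the angiopoietin that loosens vessels, by 1.36 (adjusted p 0.00301). Tek, its receptor, fell by 0.94 (adjusted p 0.0061). Pdpn, podoplanin of lymphatic vessels and wound keratinocytes, rose by 1.26 (adjusted p 0.0017). Hemoglobin genes did not separate the groups, with none of 7 tested erythroid markers called (10 listed) and Hba-a1 at 0.04 (95% interval -0.31 to 0.39).

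The test between promiR-29 and PBS incisions sets the mimic against vehicle in wounds. No group of the study received a control oligonucleotide, so the miR-29 sequence and the injection of an oligonucleotide cannot be told apart in it. Between promiR-29 and PBS incisions 120 of 20365 genes (0.589%) were called, 41 higher (0.201%) and 79 lower (0.388%). Among the genes named here, Mmp8, Chil4, Msr1 and Mt2 were higher in promiR-29 incisions, by 2.15, 1.83, 1.39 and 1.40 (adjusted p 0.0372, 0.0336, 0.0336 and 0.0336). Sfrp4, Dupd1, Pi16, Clec3b, Atp2a1, Dpt and Myh1 were lower, with differences of -2.76, -1.95, -1.60, -1.52, -0.89, -0.83 and -0.56 (adjusted p 0.00862, 0.0091, 0.0182, 0.029, 0.0467, 0.0371 and 0.0331). Sfrp4 had 3.33, 3.31 and 3.18 in PBS incisions, and Dupd1 had 4.35, 4.35 and 4.61 there, both between the values of the other 2 groups. With the replicate number as a block, the differences of Mt2, Dpt, Myh1 and Atp2a1 did not pass (adjusted p 0.0556, 0.0628, 0.0679 and 0.0545).

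By size, 3 further genes with a value on every wound array led that difference. Mirt1, a non-coding transcript, had 0.97, 1.36 and 1.45 in promiR-29 incisions, -0.06, 0.01 and -0.27 in PBS incisions and -1.24, -1.22 and -1.19 in intact PBS skin (promiR-29 minus PBS incisions 1.37, adjusted p 0.00862). Mrln, the muscle micropeptide gene myoregulin, had 2.34, 2.11 and 1.87 in promiR-29 incisions, 3.91, 3.49 and 3.75 in PBS incisions and 3.94, 3.90 and 4.31 in intact PBS skin (-1.61, adjusted p 0.0091). Tceal7 had 3.93, 3.58 and 3.02 in promiR-29 incisions, 5.05, 5.96 and 4.93 in PBS incisions and 5.00, 5.83 and 5.03 in intact PBS skin (-1.80, adjusted p 0.037). Mimic-treated wounds were the highest group for Mirt1 and the lowest for Mrln and Tceal7 on every array. These 3 genes were picked for the size of that difference, so their separation from PBS incisions is no independent support. By contrast Cxcl5 (-0.10), Mmp13 (0.12) and Csta3 (0.06), all among the largest rises over intact skin, were near 0 between the wound groups, with 95% intervals of -1.84 to 1.65, -1.17 to 1.42 and -2.10 to 2.21. All 3 PBS incisions shared a slide with promiR-29 array 1 only. With slide as a fixed block none of the 10 differences given for Mmp8, Chil4, Msr1, Mt2, Sfrp4, Dupd1, Pi16, Clec3b, Dpt and Myh1 passed, the smallest adjusted p being 0.257 for Sfrp4. The outcome of that setting is not given here for Atp2a1, Mirt1, Mrln and Tceal7.

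Slide (and with it scan) was shared by 2 arrays of each compared group, promiR-29 arrays 2 and 3 and intact PBS arrays 1 and 2. Within that slide, 4919 of the 4922 called genes had a value, and all 4919 kept their direction. These 4 arrays are among the 6 that made the calls. The median log2 fold change of the genes called higher was 0.55 within the slide, against 0.61 over all arrays, and that of the genes called lower was -0.55, against -0.59. Trem2 was 3.31 over all arrays and 3.39 within the slide, and Sfrp4 was -3.67 and -3.79. With slide as a fixed block 2738 of the 4922 genes were still called. Of the 24 leading genes, 20 were; Cldn22, Csta3, Gdf5 and Gsta3 were not.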

How the data were processed

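Two-colour Agilent arrays (design 026655, Feature Extraction 11.5.1.1, probe positions on mm9, per the file headers) carried Cy5-labelled skin RNA and Cy3-labelled reference RNA, without dye swaps. The authors deposited scanner intensities, with mean signals and background medians per spot, and a series table of log2 values. The scale of that table was checked against the scanner ratios (correlation over genes 0.891 to 0.917); its centring is not stated, and its column medians lay between -0.0408 and 0. It served as an alternative. The log10 ratios of Feature Extraction, per the file headers of red over green, were not used for results. Intensities, not yet normalised in the deposited files, were background-corrected (normexp, offset 50) and loess-normalised within arrays with limma 3.58.1 in R 4.3.3. Control spots got weight 0, and outlier spots were left out.

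Of 39429 distinct probes, 27150 had a gene name and a skin signal well above background on at least 3 of 12 arrays. Each of 20373 genes took its brightest probe. Symbols of 16207 genes came through RefSeq accessions, and 2853 probes without a gene name were left out. Group means were fitted on all 12 arrays. The number of arrays limits the precision, and no spread between mice of other litters or days is known. Upstream windows and miRNAs come from RefSeq (GRCm38.p6).

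Named genes are the 12 largest rises and falls among called genes that did not overlap and had a value on all 6 arrays, up to 4 members of smallest p per list and any further member given with its own value, and a fixed set of miR-29 targets. For the difference between promiR-29 and PBS incisions, the 4 largest each way among called genes with a value on every array of both groups are also named; the condition on values was not in the rule as first written, and Mirt1 enters by it in place of Mt2, which lacks 1 value and is named from its list. The genes compared, the lists and their members were chosen with earlier results of these data known. Arrays of the same replicate number deviated together (correlations 0.172, 0.124 and 0.476 for numbers 1 to 3), although numbers 1 and 2 correlated more with each other crosswise (0.310 and 0.291). The pairing comes from these data, not from the labels. Alternatives changed the background correction, normalisation, filter, probe rule, variance model, slide and replicate block, and left out each of the 6 arrays. The script was tested on simulated data.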

Additional observations from a re-analysis of the deposited data

Results flagged for a closer look

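Among the leading genes and the members of smallest p of each list, 10 differed between promiR-29 and PBS incisions by the test of that difference. The size of their change against intact skin thus depended on which wound was compared. Dupd1 (-1.21, adjusted p 0.00833) and Msr1 (1.03, adjusted p 0.0157) were also called in PBS incisions against intact skin, in the same direction. On the log2 scale, promiR-29 minus PBS incision, the higher genes were Mmp8 (2.15), Chil4 (1.83), Mt2 (1.40) and Msr1 (1.39). The lower genes were Sfrp4 (-2.76), Dupd1 (-1.95), Pi16 (-1.60), Clec3b (-1.52), Dpt (-0.83) and Myh1 (-0.56). Their adjusted p lay between 0.00862 for Sfrp4 and 0.0372 for Mmp8. Sfrp4 kept its call in 19 of 20 alternatives (range -3.12 to -2.55), and Dupd1 and Pi16 in 18 of 20 each (-2.21 to -1.42 and -1.84 to -1.11). Clec3b kept it in 14 of 20, Mt2 in 12 of 20, Chil4 in 11 of 19, Msr1 in 11 of 20, Myh1 in 10 of 20, Mmp8 in 9 of 19 and Dpt in 8 of 20. The alternative with slide as a fixed block ended all 10 calls.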

How the results depend on the processing

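The counts of genes called higher and lower, 2781 and 2141, stayed within 1.5 times under 12 of the 16 alternatives other than leaving out an array. They were 1758 and 1408 from the Cy5 channel alone, 1757 and 1231 when only the 6 arrays compared were fitted, 1683 and 1404 with slide as a fixed block, and 851 and 724 within slide 2. The last 3 use fewer arrays or residual degrees of freedom. Some list medians also moved toward 0 with slide as a fixed block, such as cell cycle, from 0.84 to 0.44. Others moved away from it, such as fibroblast markers, from -0.40 to -0.53. The cause of the lower counts was not tested for any of these settings. Leaving out 1 array in turn gave 1743 to 2593 higher and 1204 to 2041 lower genes. With the replicate block there were 2597 and 1971. Among 300 listed or leading genes that were called, the block ended 22 calls and slide as a fixed block 117. The block ended none of the 24 leading calls. It ended the differences of Mt2, Dpt, Myh1 and Atp2a1 between the wound groups (adjusted p 0.0556, 0.0628, 0.0679 and 0.0545). It lowered the count of lower Schwann cell genes to 2, of higher T and NK cell markers to 1, and of lower hair markers to 0.

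Called genes that turned in sign were Itgam from the Cy5 channel alone (-0.051, against 0.51) and Ncam1 in the deposited table (-0.033) and with the mean over probes (-0.025, against 0.52). Genes that were not called and were called with the other sign under an alternative were Mitf with the mean over probes (0.47), Tchh without intact PBS array 2 (0.93; 1 array in turn gave -2.11 to 0.93) and Loxl1 without intact PBS array 3 (-0.49; -0.49 to 0.84).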
